A study of Mus musculus with 6 samples.

Results

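The LIM homeobox genes examined here are *Lhx1*, *Lhx2*, *Lhx6*, *Lhx8*, *Lhx9*, *Isl1* and *Lmx1b*, 7 of the 12 genes of the family in the mouse. The members were chosen by name, and the family was selected on the measured difference of *Lhx6*, which is among the genes that stand highest in the knockout libraries. Of the 7 members, 6 are listed among the 28262 genes of the count table and 2, *Lhx6* and *Lhx9*, had enough reads to be tested. *Lhx8* has no row in the table and was not analysed here. The other family genes, *Lhx3*, *Lhx4*, *Lhx5*, *Isl2* and *Lmx1a*, are all listed and are given beside the members, and of these *Lhx4* was tested. Because the choice rests on the difference between the genotypes, the values of the family in that comparison are a description and carry no test.

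The libraries were made from total RNA of Sertoli cells, the somatic cells of the seminiferous epithelium, isolated from testes of 20-day-old C57BL/6 mice and cultured untreated at 34 °C. There were 3 libraries from Pa1F/F mice, which carry floxed *Pa1* alleles and served as the control. There were 3 libraries from Amh-pa1-/- mice, in which the same floxed alleles are deleted by a Cre recombinase under the *Amh* promoter, so that the deletion is meant for Sertoli cells and not for other cells of the testis. *Pa1* encodes a subunit of the MLL3/4 histone methyltransferase complexes, and its own reads were not analysed here. The labels alone give the genotypes.

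A LIM homeobox gene encodes a transcription factor with LIM domains, zinc-binding folds that contact partner proteins, and a homeodomain, which binds DNA. The LIM-binding protein LDB1 joins these factors into larger complexes, and LIM-only proteins of the LMO family compete for LDB1. *Lhx9* and *Lhx2* are known from the early gonad, and *Lhx9* is needed for the gonad to form. *Lhx6* and its close relative *Lhx8* are known from the ventral forebrain and from oral mesenchyme. *Lhx1* is known from the nephric duct and from spermatogonial stem cells, *Isl1* from motor neurons, heart and pancreas, and *Lmx1b* from the dorsal limb, kidney podocytes and midbrain neurons.

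Total counts on genes ranged from 13203757 to 16231443 per library, and a count of 3, taken as the floor, stood at 0.185 to 0.227 CPM, the counts scaled by library size. Intervals and floors given here cover counting error only. The replicates were unevenly spaced. Beyond counting error, the coefficient of variation was 4.35% between Amh-pa1-/- replicates 1 and 2, and 21.2% and 21.0% between these and replicate 3. It was 5.18% between Pa1F/F replicates 1 and 3, and 16.7% and 16.3% between these and replicate 2. The labels do not say which libraries came from separate animals, so the spread between them may be partly technical. The Sertoli cell genes *Sox9*, *Wt1*, *Cldn11* and *Dhh* were abundant in every library, and the 12 Sertoli cell markers summed to between 3210 and 3460 CPM in Pa1F/F and between 2920 and 3030 CPM in Amh-pa1-/- libraries. Not all markers of the list were alike. *Rhox5* had 2 to 16 counts per library, too few to be tested. Without overlap between the genotypes, *Gata4* was lower in the knockout (log2 fold change -0.88) and *Dmrt1* higher (0.64). All 6 peritubular myoid markers, genes of contractile cells around the tubule, were highest in Amh-pa1-/- replicate 3, and their sum was 1301 CPM there, as compared with 852 and 819 CPM in replicates 1 and 2 and between 220 and 283 CPM in Pa1F/F libraries. Most of this sum came from *Acta2* in every library, and *Myh11*, *Des* and *Actg2* of the same list lay below every control library in Amh-pa1-/- replicates 1 and 2.

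Of the promoters of the family, those of *Lhx6* and *Lhx9* are shown, because only these members had reads well above the floor. The windows are RefSeq promoters on GRCm38.p6, each 250 bases before to 50 bases after a transcription start, and 11 of the 12 family genes had at least 1 window. All 4 lie on the minus strand and are written 5′ to 3′ along the gene. Capitals mark the letters TGACTCA, the motif of AP-1, which is the complex of JUN and FOS factors. The *Lhx6* windows lie at chr2:36105359-36105658, chr2:36104484-36104783 and chr2:36104011-36104310, and the *Lhx9* window at chr1:138842395-138842694, inside the span of *Lhx9* as counted.
Lhx6 window 1: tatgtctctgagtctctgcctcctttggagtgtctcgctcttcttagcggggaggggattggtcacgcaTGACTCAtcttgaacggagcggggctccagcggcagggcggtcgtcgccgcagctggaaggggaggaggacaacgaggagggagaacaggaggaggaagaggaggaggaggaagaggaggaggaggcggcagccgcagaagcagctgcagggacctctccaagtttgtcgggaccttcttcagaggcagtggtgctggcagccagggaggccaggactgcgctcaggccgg
Lhx6 window 2: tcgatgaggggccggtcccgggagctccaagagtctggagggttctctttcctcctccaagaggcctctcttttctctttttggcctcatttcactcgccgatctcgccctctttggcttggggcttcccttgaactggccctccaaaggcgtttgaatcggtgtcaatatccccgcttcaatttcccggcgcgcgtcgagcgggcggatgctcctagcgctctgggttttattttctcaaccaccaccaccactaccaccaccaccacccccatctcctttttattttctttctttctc
Lhx6 window 3: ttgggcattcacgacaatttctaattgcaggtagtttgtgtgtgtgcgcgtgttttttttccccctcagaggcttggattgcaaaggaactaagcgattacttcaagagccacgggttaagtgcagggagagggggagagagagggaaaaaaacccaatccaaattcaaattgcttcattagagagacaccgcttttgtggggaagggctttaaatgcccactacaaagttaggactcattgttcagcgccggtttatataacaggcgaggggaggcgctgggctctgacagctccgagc
Lhx9 window 1: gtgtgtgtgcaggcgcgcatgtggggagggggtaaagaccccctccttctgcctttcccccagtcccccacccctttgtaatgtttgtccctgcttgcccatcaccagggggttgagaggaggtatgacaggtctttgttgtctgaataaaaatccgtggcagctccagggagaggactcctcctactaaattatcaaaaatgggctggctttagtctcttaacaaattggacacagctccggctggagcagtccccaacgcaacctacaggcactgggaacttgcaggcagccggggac

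The outermost *Lhx6* start coincides with the gene's 5′ end in the count table, and its window holds 1 TGACTCA, at chr2:36105583-36105589, which begins 181 bases before the start. Searched on both strands, this motif was in 1 of the 15 windows of the family and in 5.20% of all 32851 promoter windows of the same length. The letters TAATTA, a core that many homeodomains bind, were in 0 of the 15 family windows and in 5.29% of all windows. With no TAATTA found, no match of one motif overlapped the other. The 3 *Lhx6* windows had a GC content of 63.3%, 55.3% and 48.7% with 16, 17 and 11 CpG sites, and the *Lhx9* window had 55.3% with 6 CpG sites, as compared with medians of 52.7% and 7 CpG sites over all windows. The windows of the members that were near 0 in these cells were richer in CpG sites for *Lhx1* (31), *Lhx2* (34 and 29), *Isl1* (37) and *Lmx1b* (24). The window of *Lhx8*, whose level was not analysed here, had 4. Counts per gene do not show which start was used.

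*Lhx6* (ENSMUSG00000026890) lies on the minus strand of chromosome 2 of GRCm38, from 36081953 to 36105408. It was nearly silent in control cells and clearly expressed in knockout cells. The raw counts, in replicate order here and throughout, were 3, 6 and 1 for Pa1F/F libraries, then 186, 140 and 49 for Amh-pa1-/- libraries. As normalized counts, scaled to the mean effective library size, these were 2.72, 5.81 and 1.05 against 181.6, 158 and 49.1. Every Amh-pa1-/- library stood above every Pa1F/F library, and replicate 3 of the knockout stood well below the other two.

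The mean normalized count of *Lhx6* was 3.19 ± 2.42 (SD, n = 3) in Pa1F/F and 129.5 ± 70.6 (SD, n = 3) in Amh-pa1-/- cells, a log2 fold change of 5.27 with a standard error of 0.70. The ratio of the summed reads was 39.8, with a 95% exact counting interval from 21.4 to 83.7, since the control side holds only 10 reads. Against the control mean, the single knockout libraries were 56.9-fold, 49.4-fold and 15.4-fold higher. By fitted log2 fold change *Lhx6* ranked 5 among the 14919 tested genes and 2 among the 533 called-higher genes whose mean was 50 normalized counts or more, which is the value that led to the choice of the family.

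*Lhx9* (ENSMUSG00000019230, chromosome 1, minus strand, from 138825186 to 138848577) was the main LIM homeobox gene of control cells. In replicate order, its normalized counts were 111, 131 and 113 for Pa1F/F libraries, then 73.2, 73.2 and 146 for Amh-pa1-/- libraries. Amh-pa1-/- replicates 1 and 2 lay below every control library and replicate 3 lay above every one, so that the genotypes overlapped. The means were 118 ± 10.9 and 97.6 ± 42.2 (SD, n = 3 each), with a log2 fold change of -0.27 and a standard error of 0.29. Without Amh-pa1-/- replicate 3 it was -0.69 with a standard error of 0.15, so the size of the difference rests on that library, and without replicate 1 or 2 it was -0.10 or -0.09.

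The other members were at or near the floor. *Isl1* (chromosome 13, from 116298281 to 116309689) had 1, 0 and 2 counts in Pa1F/F and 0, 2 and 6 in Amh-pa1-/- libraries, and its highest count was in Amh-pa1-/- replicate 3. *Lhx2* (chromosome 2, from 38339281 to 38369733) had 0, 0 and 2 counts against 0, 2 and 1. *Lmx1b* (chromosome 2, from 33560965 to 33640511) had 1, 0 and 1 counts against 0, 0 and 0, and *Lhx1* (chromosome 11, from 84518284 to 84525535) had 1 count in Pa1F/F replicate 1 and none elsewhere. No difference between the genotypes was detectable for these 4 genes at this depth, and none of them entered the test. *Lhx1* is known from spermatogonial stem cells. The 11 spermatogonial markers, all listed, summed to between 283 and 345 CPM in Pa1F/F and between 193 and 294 CPM in Amh-pa1-/- libraries, most of it from *Uchl1* and *Etv5*, while the defining gene *Zbtb16* had 0 to 3 counts per library. Of the 8 tested, 4 fell (*Gfra1*, *Ret*, *Kit* and *Ddx4*) in edgeR's quasi-likelihood test, and the median log2 fold change was -1.60. *Id4* of the same list was higher in every knockout library than in any control library, with a log2 fold change of 2.09 that was not past the test (adjusted p = 0.0520 by edgeR). The part of these cells in the reads of *Lhx1* was not tested.

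Of the remaining family genes, *Lhx4* (ENSMUSG00000026468, chromosome 1, from 155698031 to 155751684), which is known from the pituitary and from motor neurons, had the most reads. Its normalized counts were 12.7, 6.78 and 22.0 in Pa1F/F and 48.8, 31.5 and 45.1 in Amh-pa1-/- libraries. Every knockout library stood above every control library, with means of 13.8 ± 7.69 and 41.8 ± 9.09 (SD, n = 3 each), and the log2 fold change was 1.60 with a standard error of 0.41. *Lhx5*, known from the developing forebrain, had 8, 3 and 4 counts in Pa1F/F and 2, 0 and 0 in Amh-pa1-/- libraries. Its ratio of summed reads was 0.142, with a 95% exact counting interval from 0.0157 to 0.609. *Lmx1a* had 2, 0 and 0 counts against 3, 3 and 3, *Isl2* had 3, 2 and 0 against 0, 0 and 0, and *Lhx3* had 0, 0 and 0 against 0, 2 and 0, all of them at or under the floor.

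A gene was called where edgeR's quasi-likelihood test gave an adjusted p-value below 0.05 and the log2 fold change was 1 or more in size. By this rule, 1 of the 2 tested members was called higher and 0 lower. Among all tested genes 5.44% were called higher and 6.56% lower, and since the comparison chose the family nothing is read from the members' count. No member was lower at an unadjusted p-value under 0.05 in edgeR either, nor called lower by DESeq2 or limma-voom. The call of *Lhx4*, which is not a member, was higher as well, but was lost without Pa1F/F replicate 1 (log2 fold change 1.55) and without Amh-pa1-/- replicate 1 (log2 fold change 1.48).

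**Figure D1:**
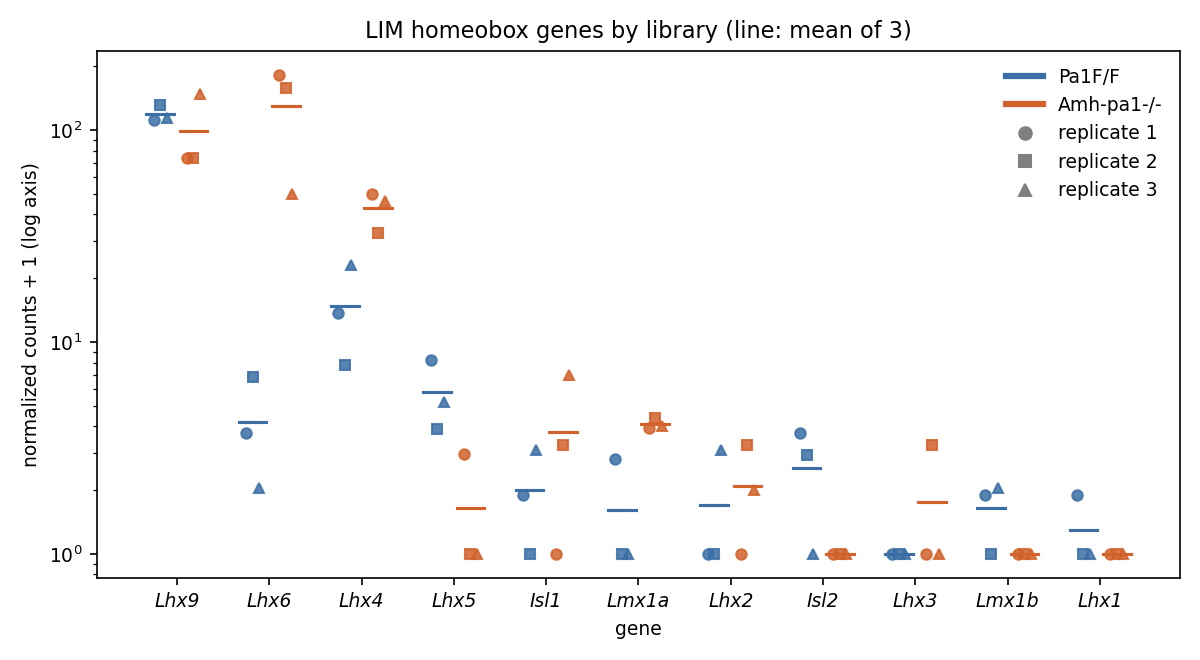
Normalized counts plus 1 on a log axis for the 11 listed LIM homeobox genes in each of the 6 libraries, ordered by their mean. Blue marks are Pa1F/F and orange marks Amh-pa1-/- libraries, the shape gives the replicate, and the line is the mean of 3. *Lhx6* stood at 1.05 to 5.81 normalized counts in Pa1F/F and 49.1 to 181.6 in Amh-pa1-/- libraries, *Lhx9* was expressed in all libraries with overlapping genotypes, and most other genes lay near 0.

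To compare levels between the genes, normalized counts were divided by the kilobases of exon of each gene. In Pa1F/F cells the order was *Lhx9* with 12.4 ± 1.15, *Lhx4* with 2.36 ± 1.31, *Lhx5* with 1.78 ± 0.828, *Isl2* with 0.708 ± 0.638 and *Lhx6* with 0.622 ± 0.470 normalized counts per kilobase (SD, n = 3 each), followed by *Isl1* with 0.252 ± 0.265 and the rest below it. *Lhx9* stood above all others in every control library, while each later neighbour in this order overlapped the next. In Amh-pa1-/- cells the order was *Lhx6* with 25.2 ± 13.8, *Lhx9* with 10.2 ± 4.43 and *Lhx4* with 7.15 ± 1.55 normalized counts per kilobase (SD, n = 3 each). Here *Lhx6* and *Lhx9* overlapped, since *Lhx6* led with 35.4 and 30.7 against 7.69 and 7.69 in replicates 1 and 2, and *Lhx9* led with 15.4 against 9.56 in replicate 3. *Lhx9* and *Lhx4* overlapped as well.

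Of the summed level of the 11 genes per kilobase, *Lhx9* made up 66.8% ± 8.50 in Pa1F/F and 24.9% ± 16.3 in Amh-pa1-/- cells, and *Lhx6* made up 3.38% ± 2.65 and 53.3% ± 22.7 (SD, n = 3 each). The share of *Lhx6* was 66.8%, 66.1% and 27.2% in Amh-pa1-/- replicates 1, 2 and 3. Set against the tested genes whose exon length was known, 14787 in all, the mean level of *Lhx6* per kilobase in Amh-pa1-/- cells was above that of 31.6% of them, and that of *Lhx9* above 20.0% in Pa1F/F cells. The family was thus at the lower end of the expressed genes in both genotypes.

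The location of *Lhx6* was examined next, with neighbours chosen by position after the values were seen. *Lmx1b*, *Lhx6* and *Lhx2* lie on the same chromosome, with *Lmx1b* on one side and the start of *Lhx2* 2.26 Mb above that of *Lhx6* on the other, and *Nr5a1*, which encodes the steroidogenic factor of gonad and adrenal, lies a little beyond *Lhx2*. Within 500 kb of *Lhx6* 15 other genes are listed, none of which overlaps it, and 6 were tested. None of the 6 was called in edgeR's quasi-likelihood test, 2 were higher and 0 lower at an unadjusted p-value under 0.05, and neither DESeq2 nor limma-voom called any. Their median log2 fold change was 0.15, as compared with 0.00 over all tested genes.

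The nearest listed gene, *Morn5*, lies just beyond the 3′ end of *Lhx6* on the other strand and stood at 1.81, 0 and 1.05 normalized counts in Pa1F/F and 2.93, 3.38 and 5.01 in Amh-pa1-/- libraries, too few reads for the test. *Rbm18*, an RNA-binding protein gene 10.7 kb away, had a log2 fold change of 0.09, and *Ndufa8*, a subunit gene of respiratory complex I, 0.13. *Ptgs1*, which encodes cyclooxygenase 1 and lies 125 kb away, had the largest difference among the tested neighbours, a log2 fold change of 0.55 (SE 0.12; adjusted p = 0.0111 by edgeR), which is below the fold threshold. For *Lhx9*, 13 genes are listed within 500 kb and 3 were tested, of which edgeR called 0 in either direction, with 0 at an unadjusted p-value under 0.05 and 0 called by DESeq2 or limma-voom.

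**Figure D2:**
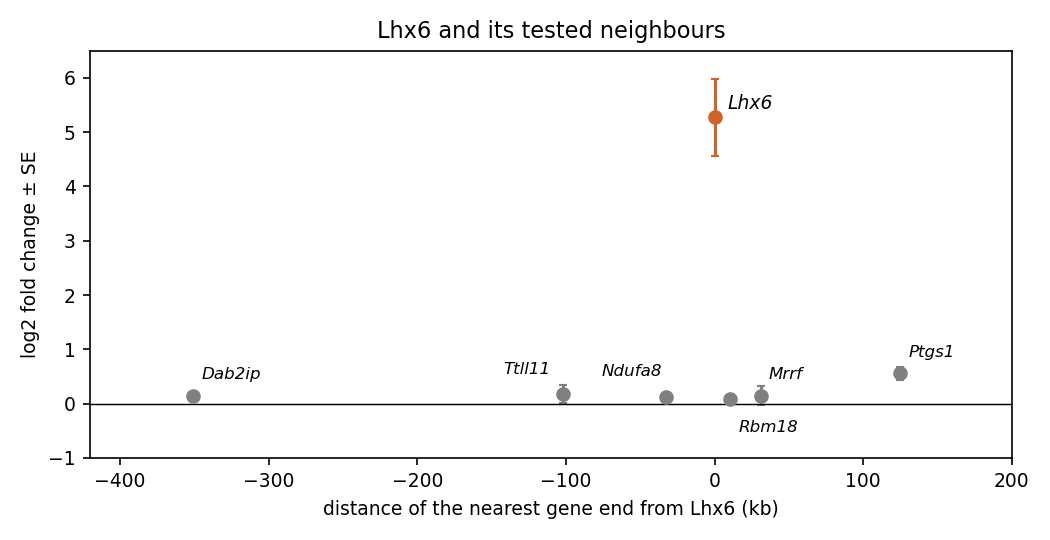
Log2 fold change of Amh-pa1-/- against Pa1F/F libraries with its standard error for *Lhx6* (orange) and its 6 tested neighbours (grey), by the distance in kb between the nearest gene ends. *Lhx6* stands at 5.27, while the neighbours lie between 0.09 and 0.55.

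The genes whose pattern over the 6 libraries was most like that of each tested member were taken by Pearson's r of log2 CPM among 11717 other tested genes whose mean was 50 normalized counts or more. The value is a description over 6 libraries that share the genotype groups. For *Lhx6* these were *Rnps1* with r = 0.998, *Tuba1c* with r = 0.997 and *Ctps* with r = 0.997, and 574 genes had an r above 0.95. Their log2 fold changes were much smaller, at 0.13, 0.46 and 0.99, and *Ctps* was highest in Amh-pa1-/- replicate 2, where *Lhx6* was highest in replicate 1. *Rnps1* encodes a splicing-linked RNA-binding protein, *Tuba1c* an alpha tubulin and *Ctps* the CTP synthase.

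For *Lhx9* the most similar genes were *1500009L16Rik* with r = 0.997, *Amh* with r = 0.996 and *Slc16a3* with r = 0.996, and 115 genes had an r above 0.95. *Amh* encodes anti-Müllerian hormone, a product of immature Sertoli cells whose promoter drives the Cre here, and *Slc16a3* a lactate transporter. *Amh* had 186, 254 and 179 normalized counts in the Pa1F/F libraries, then 43.9, 48.4 and 365 in the Amh-pa1-/- libraries. As with *Lhx9*, replicates 1 and 2 of the knockout lay below every control library and replicate 3 above every one. The peritubular myoid gene *Myh11* stood at 216, 164 and 1605 normalized counts in the same knockout libraries. The part of the peritubular myoid markers in the level of *Lhx9* in Amh-pa1-/- replicate 3 was not tested.

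**Figure D3:**
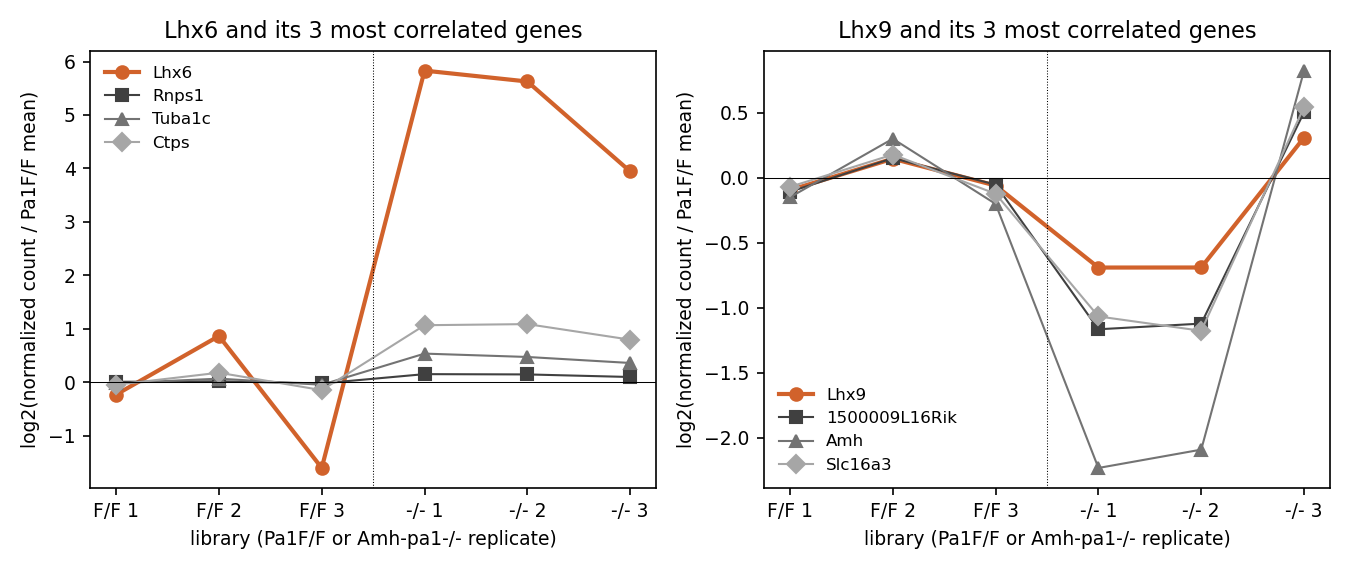
Log2 ratio of each library's normalized count to the Pa1F/F mean for *Lhx6* (left) and *Lhx9* (right) in orange, with their 3 most correlated genes in grey, and a dotted line between the genotypes. *Lhx6* followed genes of much smaller fold and was lowest in Amh-pa1-/- replicate 3 among the knockout libraries, while *Lhx9* and *Amh* were low in Amh-pa1-/- replicates 1 and 2 and high in replicate 3.

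Markers of several other cell types differed between the genotypes beside *Lhx6*. Among those that rose were markers of the mesothelium, the epithelium that covers the testis. Of 10 mesothelial markers, all listed and 9 tested, 4 rose and 0 fell in edgeR's quasi-likelihood test (1 was lower at an unadjusted p-value under 0.05, and DESeq2 and limma-voom called 3 and 4 higher and 0 lower). Their summed level was between 358 and 380 CPM in Pa1F/F and between 375 and 466 CPM in Amh-pa1-/- libraries, a sum that includes *Wt1*, which Sertoli cells also express. *Upk3b*, a uroplakin gene, stood at 6.34, 4.84 and 14.7 normalized counts in Pa1F/F and 230.4, 242 and 339 in Amh-pa1-/- libraries. *Krt19*, a keratin gene, stood at 2.72, 0.968 and 1.05 against 51.7, 59.7 and 55.1. Other markers of the list were lower in the knockout without being called, with mean normalized counts of 77.6 and 45.6 and no overlap for the keratin gene *Krt8* (log2 fold change -0.77), and of 61.9 and 43.0 with overlap for *Msln*, which encodes mesothelin (-0.53). Among the knockout libraries, *Krt8* and *Msln* were lowest in replicate 3, as *Lhx6* was, while *Upk3b* and *Krt19* were not. No marker of the list was at 0 in any library. Of 6 peritubular myoid markers 5 were tested and 1, *Acta2*, rose, which carries the summed levels given above. Of 3 tested Leydig cell markers, genes of the steroid-producing cells between tubules, all fell. The 7 listed summed to between 786 and 909 CPM in Pa1F/F and between 163 and 295 CPM in Amh-pa1-/- libraries, with *Insl3* at 0 in 4 libraries. Most of that sum came from *Star* and *Cyp11a1*. *Cyp17a1* of the same list had 1, 3 and 2 counts in Pa1F/F and 0, 0 and 1 in Amh-pa1-/- libraries, too few for the test. Of 7 markers of the rete testis and efferent ducts, which drain the tubules, 4 were tested and 1, the ciliary gene *Foxj1*, rose, and the list summed to between 22.0 and 24.5 CPM in Pa1F/F and between 36.3 and 41.1 CPM in Amh-pa1-/- libraries, without overlap. In that list *Epcam*, an epithelial adhesion gene, had a log2 fold change of 0.60 (adjusted p = 0.00299 by edgeR), short of the fold threshold, and made up most of the sum. *Cdh1*, the epithelial cadherin, was lower without overlap and not called (log2 fold change -0.48), and *Cdh16* was at 0 in 4 libraries. The part of any of these cells in the reads of *Lhx6* was not tested. In bulk RNA, more cells of a type and more RNA per cell cannot be told apart.

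Among the genes of proteins that LIM homeodomain factors work with, both called genes were LIM-only genes. Of 10 cofactor genes 9 were tested, 1 rose, 1 fell and 7 were not called, with a median log2 fold change of -0.04. The shares over all tested genes, 5.44% called higher and 6.56% called lower, stand beside this count and those of the lists that follow. *Ldb1*, the common LIM-binding cofactor, had 1202, 1162 and 1132 normalized counts in Pa1F/F and 1147, 1115 and 1370 in Amh-pa1-/- libraries, and the genotypes overlapped (log2 fold change 0.06, standard error 0.09, edgeR, adjusted p = 0.659). *Rlim*, a ubiquitin ligase that targets LDB proteins, had a log2 fold change of -0.04 (standard error 0.06), and the LDB-stabilizing genes *Ssbp2*, *Ssbp3* and *Ssbp4* had -0.23, 0.17 and -0.12, none of them past the test. Per kilobase, *Ldb1* stood at 230.2 and *Lmo4* at 456 normalized counts in Pa1F/F cells, far above any LIM homeobox gene.

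*Lmo3*, a LIM-only gene known from the nervous system, rose from 0.906, 0.968 and 0 normalized counts in Pa1F/F to 13.7, 12.4 and 21.0 in Amh-pa1-/- libraries. Its log2 fold change was 4.36 with a standard error of 0.61 (edgeR, adjusted p = 0.00250), and it rests on 2 control reads. *Lmo2*, known from blood and endothelial cells, fell from 31.7, 49.4 and 17.8 to 10.7, 6.76 and 8.02 normalized counts, a log2 fold change of -1.94 with a standard error of 0.44 (adjusted p = 0.0155 by edgeR). The call of *Lmo2* was lost without Amh-pa1-/- replicate 2 (edgeR, adjusted p = 0.0565), where its log2 fold change was -1.79. Markers of cells in which *Lmo2* is known moved beside it, since 6 of 7 tested macrophage markers fell. All 8 listed summed to 124 to 136 CPM in Pa1F/F and 77.1 to 92.9 CPM in Amh-pa1-/- libraries, most of the latter from *Mrc1*, which was not called (log2 fold change 0.17). The 6 listed endothelial markers summed to between 116 and 121 CPM and between 63.1 and 104 CPM, with *Pecam1* called lower and *Vwf* called higher among 4 tested, and *Emcn* at 0 in 4 libraries. Most of that sum came from *Cdh5*, the cadherin of endothelial junctions, which had a log2 fold change of -0.87 without overlap (adjusted p = 0.000536 by edgeR), short of the fold threshold. *Kdr*, a VEGF receptor gene, stood at 80.0, 74.4 and 485 normalized counts in the Amh-pa1-/- libraries, high in replicate 3 alone. The part of these cells in the reads of *Lmo2* was not tested.

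Genes linked to *Lhx6* in forebrain interneurons, where it acts below *Nkx2-1* and beside the *Dlx* genes, went both ways. Of 14 genes 10 are listed and 8 were tested, and 2 rose and 2 fell, with a median log2 fold change of -0.26. *Nkx2-1* had 2 counts in Pa1F/F replicate 1 and 1 in Amh-pa1-/- replicate 3, and *Dlx2* had 3 and 1 counts in replicate 1 of each genotype, with 0 in the other libraries, so both were at the floor. *Dlx1*, *Dlx5*, *Dlx6* and *Sst* have no row and were not analysed here.

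*Satb1*, a chromatin organizer downstream of *Lhx6* in interneurons, rose from 164, 142 and 145 to 757, 727 and 512 normalized counts, a log2 fold change of 2.14 with a standard error of 0.17 (adjusted p = 0.000316 by edgeR). *Erbb4*, the neuregulin receptor, rose from 296, 173 and 314 to 1132, 1139 and 825, a log2 fold change of 1.98 with a standard error of 0.24 (adjusted p = 0.00156 by edgeR). For both genes, as for *Lhx6*, Amh-pa1-/- replicate 3 was the lowest knockout library, and every knockout library lay above every control library. *Cxcr4*, a chemokine receptor, fell from 94.2, 27.1 and 88.1 to 19.5, 16.9 and 18.04, a log2 fold change of -1.93 with a standard error of 0.48 (adjusted p = 0.0207 by edgeR). *Maf*, a bZIP factor, fell from 912, 806 and 935 to 443, 533 and 338, a log2 fold change of -1.01 with a standard error of 0.16 (adjusted p = 0.00423 by edgeR).

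The calls of these falls changed with single libraries. *Cxcr4* was not past the test without Pa1F/F replicate 1 or 3 (adjusted p of 0.0731 and 0.0692 by edgeR), without either of the first Amh-pa1-/- libraries (adjusted p of 0.0620 and 0.0678 by edgeR) or with limma-voom (adjusted p = 0.0735), while its log2 fold change stayed between -1.99 and -1.65 in these fits. *Maf* fell short of the fold threshold without Pa1F/F replicate 1 or 3 (log2 fold change -0.99 and -0.97) and without Amh-pa1-/- replicate 3 (-0.86). *Ackr3*, a scavenging chemokine receptor, had 20.8, 20.3 and 21.0 normalized counts in Pa1F/F and 3.90, 7.89 and 51.1 in Amh-pa1-/- libraries, which overlap, and a fitted log2 difference of 0.03 with a standard error of 0.81. Without Amh-pa1-/- replicate 3 the fold change of *Ackr3* was -1.82 and was called (edgeR, adjusted p = 0.00932). *Sox6*, an SRY-related factor, had a log2 fold change of 0.26, and its genotypes overlapped.

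Regulators that act beside *Lhx9* and *Lhx2* in the gonadal ridge, the primordium of the gonad, were mostly expressed and in part lower in the knockout. Of 12 genes 10 were tested, 3 fell and 0 rose in edgeR's quasi-likelihood test, with a median log2 fold change of -0.45. At an unadjusted p-value under 0.05 1 gene was higher and 5 were lower, and DESeq2 and limma-voom also called 0 higher. *Nr0b1*, which encodes the orphan nuclear receptor DAX1, fell from 341, 212 and 406 to 13.7, 24.8 and 4.01 normalized counts, a log2 fold change of -4.51 with a standard error of 0.50 (adjusted p = 0.00107 by edgeR). *Emx2*, a homeobox gene needed for the gonad to form, fell from 32.6, 32.0 and 24.1 to 7.81, 10.1 and 14.0, a log2 fold change of -1.46 with a standard error of 0.30 (adjusted p = 0.00992 by edgeR).

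*Gata4* and *Nr5a1*, both needed in the early gonad, had log2 fold changes of -0.88 and -0.41 (edgeR, adjusted p = 0.000325 and 0.00374), and *Cbx2*, a Polycomb gene, 0.79 (edgeR, adjusted p = 0.00477). All 3 were past the adjusted p-value and short of the fold threshold, with no overlap between the genotypes. *Wt1* and *Sox9* had 0.13 and -0.12, *Zfpm2* -0.29 and *Tcf21* -0.49, with overlapping genotypes. *Six4* was too low to be tested. The Leydig cell markers, whose cells are also known to express *Nr0b1*, *Nr5a1* and *Gata4*, fell beside them in all 3 genes tested, with the summed levels given above. *Cyp17a1* and *Insl3* of that list were at or under the floor in both genotypes. The part of Leydig cells in the lower gonadal ridge genes was not tested.

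**Figure D4:**
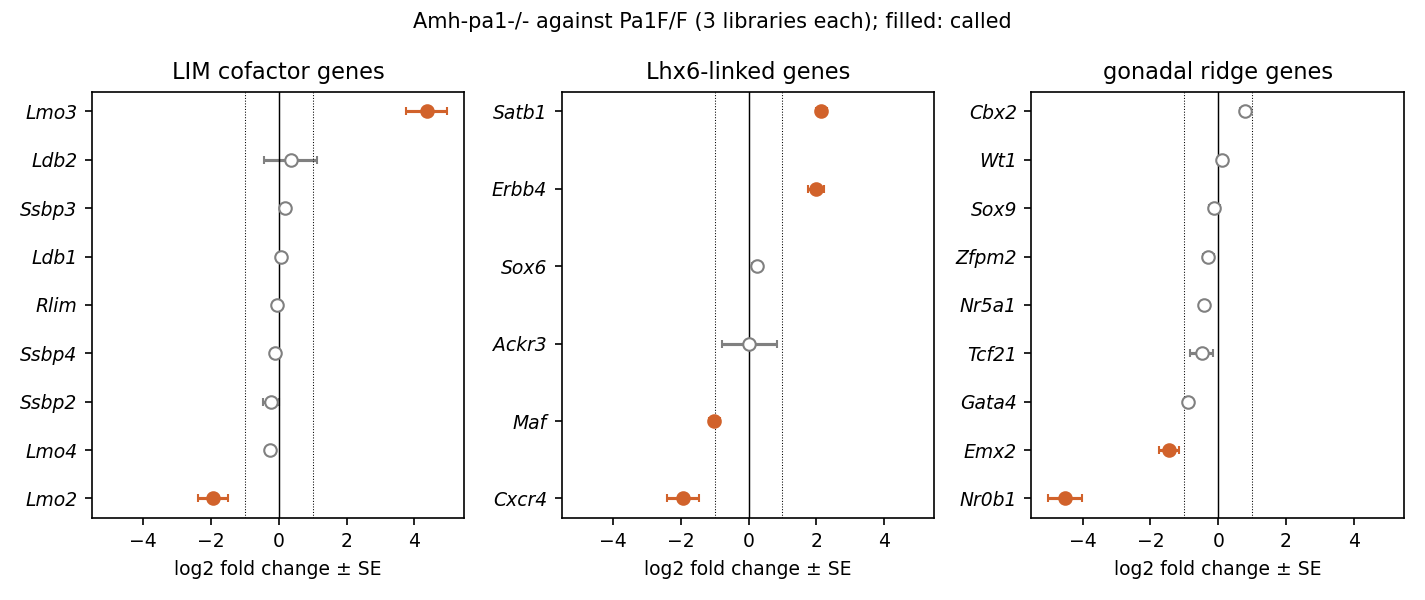
Log2 fold change of Amh-pa1-/- against Pa1F/F libraries (3 each) with its standard error for tested genes of the cofactor, *Lhx6*-linked and gonadal ridge lists. Filled orange points were called, and dotted lines mark a log2 fold change of 1 in each direction. *Lmo3*, *Satb1* and *Erbb4* stand to the right at 4.36, 2.14 and 1.98, and *Nr0b1* farthest to the left at -4.51.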

How the data were processed

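RNA-seq libraries of isolated Sertoli cells, 3 per genotype, were analysed from a table of counts per gene. Per the methods and labels, the authors used HISAT2 2.1.0 for alignment to GRCm38 and HTSeq 0.6.0 for counting, and the raw counts were deposited without normalization, with no strand setting given in the sources used here. The table also holds the authors' own comparison (mean, fold change, p-values), which was not used. All 6 columns of counts were used, as mapped by the library titles.

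The whole table was fitted in R 4.3.3 with edgeR 4.0.16: filterByExpr (minimum count 10, total 15), TMM and the quasi-likelihood F-test by genotype, with Benjamini-Hochberg adjustment over 14919 tested genes. The thresholds for a call are those of the study. A standard error is the absolute log2 fold change over the square root of F. DESeq2 1.42.0 and limma 3.58.1 served as alternatives, and the fit was tested on simulated counts. Exon lengths were taken from GENCODE annotation of a later build (GRCm39) by gene identifier and used as lengths only. Promoters are RefSeq's. Figures were drawn with Python 3.11.15.

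The text names the whole family, the called genes of 3 pathway lists with *Ldb1*, the 3 genes most correlated with each tested member, and markers that moved with a result. Other genes of these lists, and neighbours by position, were named after their values were seen. Members and lists were chosen with earlier results of these data known. Some list genes enter the counts and medians but are not reported here by name.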

Additional observations from a re-analysis of the deposited data

How the results depend on the processing

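The log2 fold change of *Lhx6* lay between 4.90 and 5.97 over the 12 alternatives that gave a value. Where every library had to hold 10 counts or more, *Lhx6*, *Lhx4*, *Lmo2*, *Lmo3*, *Emx2* and *Nr0b1* could not be tested, so that 0 members and 0 cofactor genes were called and 1 gonadal ridge gene. With the close pairs of replicates summed (Pa1F/F 1 and 3, Amh-pa1-/- 1 and 2), 1 cofactor gene and 2 *Lhx6*-linked genes were called, *Lhx4*, *Lmo2*, *Maf*, *Cxcr4* and *Emx2* were not, and over all genes 428 were higher and 455 lower, against 812 and 979. This fit has fewer samples. With 1 replicate left out, 1 to 2 cofactor genes and 2 to 5 *Lhx6*-linked genes were called. *Ldb1* changed sign without Amh-pa1-/- replicate 3 (log2 fold change -0.0405, standard error 0.055), and lay between -0.0405 and 0.127 with 1 replicate left out. Same-numbered deviations from the genotype means correlated at 0.104, -0.159 and -0.175. These values gave no sign that replicate numbers pair the libraries. They cannot exclude it, since a single library in each genotype stood apart from the others. Not every library correlated best with its own number. Over all genes the block called 716 higher and 842 lower. With the replicate block the log2 fold changes of *Lhx6* and *Lhx9* were 5.30 and -0.34, and 2 cofactor, 4 *Lhx6*-linked and 3 gonadal ridge genes were called, the counts of the fit without it. Low counts limit the controls of *Lhx6* and *Lmo3* and all other members except *Lhx9*.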
